A study of Mus musculus with 21 samples.

Results

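Saa3, Hp, Lcn2, Serpina3f, Serpina3g and Serpina3n are 6 genes of the acute-phase response and of the serpin A3 cluster, followed here through mouse macrophages that met interleukins, tumour necrosis factor or both. The members are the rows of the deposited count table whose Ensembl identifier carries one of these symbols, which makes 6 of 47069 gene identifiers. They were chosen on their measured levels in these same libraries, so their own values below are a description and are given with no p value. A gene is said to be called where its adjusted p was below 0.05, in edgeR unless another test is named. For these 6 genes a call describes the fit and is no independent support. All 6 passed the filter on low counts, Lcn2 and Serpina3n at levels of at most 1.02 CPM (CPM is the count scaled to sequencing depth, with library totals adjusted by TMM).

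The cells were bone-marrow-derived macrophages, that is, marrow cells of wild-type C57BL/6 mice aged 8 to 10 weeks that had matured in culture with M-CSF, the growth factor that drives macrophage development. IL stands here for IL4 together with IL13, and each cytokine was used at 10 ng/ml. The groups are IL_TNF_6h and IL_TNF_24h (IL with TNF for 6 h or 24 h), TNF_6h and TNF_24h (TNF alone), IL_6h and IL_24h (IL alone) and Ctrl_0h (untreated cells at 0 h), with 3 libraries each, 21 in all. Untreated cells at 6 h and 24 h were not analysed here, so every comparison with Ctrl_0h also carries the time in culture. Since no label ties replicates to different mice or cultures, p values and errors measure only the spread between these samples, which may be technical.

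The acute-phase response is the change in secreted proteins that follows infection or injury, driven mainly by interleukin 6, interleukin 1 and TNF through the transcription factors NF-kB, C/EBP and STAT3. The liver makes most of these proteins, but macrophages, neutrophils and epithelia make some of their own. Serpins are inhibitors that trap proteases. The A3 branch has a single gene in humans, which encodes alpha-1-antichymotrypsin, and a cluster of similar genes in the mouse. TNF is a classical inducer of inflammatory genes in macrophages, and IL4 with IL13 is the classical inducer of alternative activation through STAT6.

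The libraries held 28063252 to 48654300 counts, and all 10 macrophage markers reached at least 1 CPM in every group. In replicate 2 of Ctrl_0h 27761 genes had a count, and in the 20 other libraries 16996 to 20631. Replicate 3 of IL_TNF_24h had 27.9 CPM of hepatocyte markers, against at most 2.57 CPM in the 20 others. Replicate 1 of IL_TNF_24h had 71 genes at least 3-fold above both other replicates and 75 at least 3-fold below. The 6 libraries of IL_24h and IL_TNF_24h had 41.8 to 50.9 CPM of the Y-linked gene Ddx3y, and the 15 others had no count of it. The 6 libraries of IL_6h and IL_TNF_6h had 30.3 to 64.2 CPM of Ifi202b, an interferon-inducible gene, and the 15 others had no count of it. TNF against Ctrl_0h, TNF_24h against TNF_6h, and IL_TNF against IL at one time compare libraries that are alike in these genes. IL against Ctrl_0h and IL_TNF against TNF compare libraries that differ in them, so cytokine and source of the cells cannot be told apart there. IL_24h beside IL_6h, and IL_TNF_24h beside IL_TNF_6h, differ in both genes, so time and source cannot be told apart there. Where the fold change of IL_TNF over IL is set against that of TNF over Ctrl_0h, each fold change is within like libraries, but the cells with IL differ in these genes from those without it, so IL and source cannot be told apart there either.

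Upstream sequences of 4 members are shown because the serpin A3 genes among them share much sequence and yet had different profiles over the groups, and because the levels of Saa3 ranged widely between groups. Each is the 250 bases before a RefSeq start (for Serpina3f, the first of 2 starts), 5′ to 3′ on the gene's own strand, in GRCm38.p6. The Saa3 stretch lies inside the annotated span of Saa3 (46711998 to 46719615). The end of the Serpina3n stretch, from base 104406646 on, lies inside the span of Serpina3n. Matches there are before the start used, but not before the whole annotated gene. Capitals mark matches, on either strand, to letters searched for 5 motifs: GGG and CC with 5 bases between them (kB), TTNNGNAA (C/EBP), TTCNNNGAA (GAS), TTC and GAA with 4 bases between them (STAT6), and GAAA and GAAA with 2 bases between them (ISRE core).
Saa3, chr7:46715677-46715926, minus strand: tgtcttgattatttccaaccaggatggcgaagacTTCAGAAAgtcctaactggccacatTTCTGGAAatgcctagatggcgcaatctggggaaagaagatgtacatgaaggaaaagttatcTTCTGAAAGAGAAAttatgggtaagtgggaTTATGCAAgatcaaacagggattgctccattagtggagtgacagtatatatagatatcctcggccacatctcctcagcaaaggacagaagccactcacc
Serpina3f, chr12:104214294-104214543, plus strand: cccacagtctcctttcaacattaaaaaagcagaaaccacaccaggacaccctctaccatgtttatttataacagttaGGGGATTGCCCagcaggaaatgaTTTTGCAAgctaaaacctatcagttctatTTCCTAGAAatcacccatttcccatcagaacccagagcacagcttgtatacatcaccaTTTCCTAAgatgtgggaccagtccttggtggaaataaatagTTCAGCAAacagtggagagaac
Serpina3g, chr12:104235897-104236146, plus strand: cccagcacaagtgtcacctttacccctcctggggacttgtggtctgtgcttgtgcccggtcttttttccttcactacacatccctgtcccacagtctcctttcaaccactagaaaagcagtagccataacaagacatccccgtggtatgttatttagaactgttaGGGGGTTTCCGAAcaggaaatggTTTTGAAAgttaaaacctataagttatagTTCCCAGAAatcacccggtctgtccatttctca
Serpina3n, chr12:104406458-104406707, plus strand: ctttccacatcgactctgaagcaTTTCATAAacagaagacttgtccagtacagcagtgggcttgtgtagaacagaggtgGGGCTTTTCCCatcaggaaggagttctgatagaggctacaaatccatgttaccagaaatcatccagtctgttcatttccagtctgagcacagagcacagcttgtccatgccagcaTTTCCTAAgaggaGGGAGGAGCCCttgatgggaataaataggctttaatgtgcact

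The Saa3 stretch held 4 C/EBP matches, the nearest 99 to 92 bases before the start, and 1 ISRE core match, which overlaps the C/EBP match at 129 to 122 bases. Serpina3f and Serpina3g each held 1 GAS match, TTCCTAGAA at 121 to 113 bases and TTCCCAGAA at 33 to 25 bases. Each of the 3 serpin stretches held kB matches, in Serpina3g overlapping a C/EBP match and in Serpina3f and Serpina3n as overlapping pairs. The stretch before the second Serpina3f start held no kB match, 3 C/EBP matches and 1 GAS match. None of the 4 stretches shown held the STAT6 letters. Lcn2, whose stretch is not printed because its levels were near 0, held a STAT6, a kB and a C/EBP match. Over 32851 RefSeq promoters of the same length, 45.8% held a kB match, 36.9% a C/EBP match, 7.02% a GAS match, 5.85% a STAT6 match and 2.98% an ISRE core match. A match is a string of letters and was not tested for binding. Of 161 aligned bases of the Serpina3f and Serpina3g stretches, 133 were identical (82.6%). The share was 70.6% of 231 aligned bases for Serpina3f and Serpina3n and 59.5% of 205 for Serpina3g and Serpina3n. Bases opposite gaps are not counted in these shares.

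Saa3 (ENSMUSG00000040026, chromosome 7, 46711998 to 46719615 in GRCm38.p6) encodes a serum amyloid A, an apolipoprotein of acute-phase lipoproteins that in the mouse is made largely outside the liver, macrophages included. At 6 h it had 84.3, 76.9 and 59.6 CPM in IL_TNF_6h, 2393, 2166 and 1958 CPM in TNF_6h and 48.6, 28.9 and 44.2 CPM in IL_6h. At 24 h it had 23.0, 23.8 and 24.3 CPM in IL_TNF_24h, 375, 335 and 192 CPM in TNF_24h and 2.38, 2.72 and 2.60 CPM in IL_24h. Ctrl_0h had 3.50, 2.40 and 1.14 CPM. Every library with TNF alone lay above every library of the 5 other groups, and neighbouring groups in the order TNF_6h, TNF_24h, IL_TNF_6h, IL_6h, IL_TNF_24h, IL_24h did not overlap, while IL_24h and Ctrl_0h did.

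Relative to Ctrl_0h, Saa3 rose by 9.84 ± 0.39 on the log2 scale in TNF_6h (SE; 914-fold), and by 6.98 ± 0.35 in TNF_24h (126-fold). It rose by 4.09 ± 0.31 in IL_6h (17.1-fold), and its value in IL_24h was 0.11 ± 0.31. Relative to TNF_6h it fell in TNF_24h, with a log2 fold change of -2.85 ± 0.28. Saa3 was lower in cells with IL and TNF than in cells with TNF alone: the log2 fold change was -4.88 ± 0.31 at 6 h, a level 3.39% of that in TNF_6h, and -3.67 ± 0.29 at 24 h. Relative to IL alone, Saa3 rose by 3.21 ± 0.30 in IL_TNF_24h and by 0.86 ± 0.26 in IL_TNF_6h. The call at 6 h is lost when replicate 2 or 3 of IL_6h or replicate 1 or 2 of IL_TNF_6h is left out, with values of 0.68, 0.92, 0.75 and 0.82 on the log2 scale. The sum of 6 T and NK cell markers was also higher in TNF_6h (27.3 to 30.4 CPM) and TNF_24h (6.76 to 9.01 CPM) than in Ctrl_0h (5.18 to 5.58 CPM). It was mostly Cd4, with a mean of 29.1 CPM in TNF_6h and 4.83 CPM in Ctrl_0h, while Cd3d and Ncr1 had no count in TNF_6h. Its part in the levels of Saa3 and Hp was not tested. In bulk samples like these, fewer cells that express a gene and less RNA per cell cannot be told apart.

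**Figure D1:**
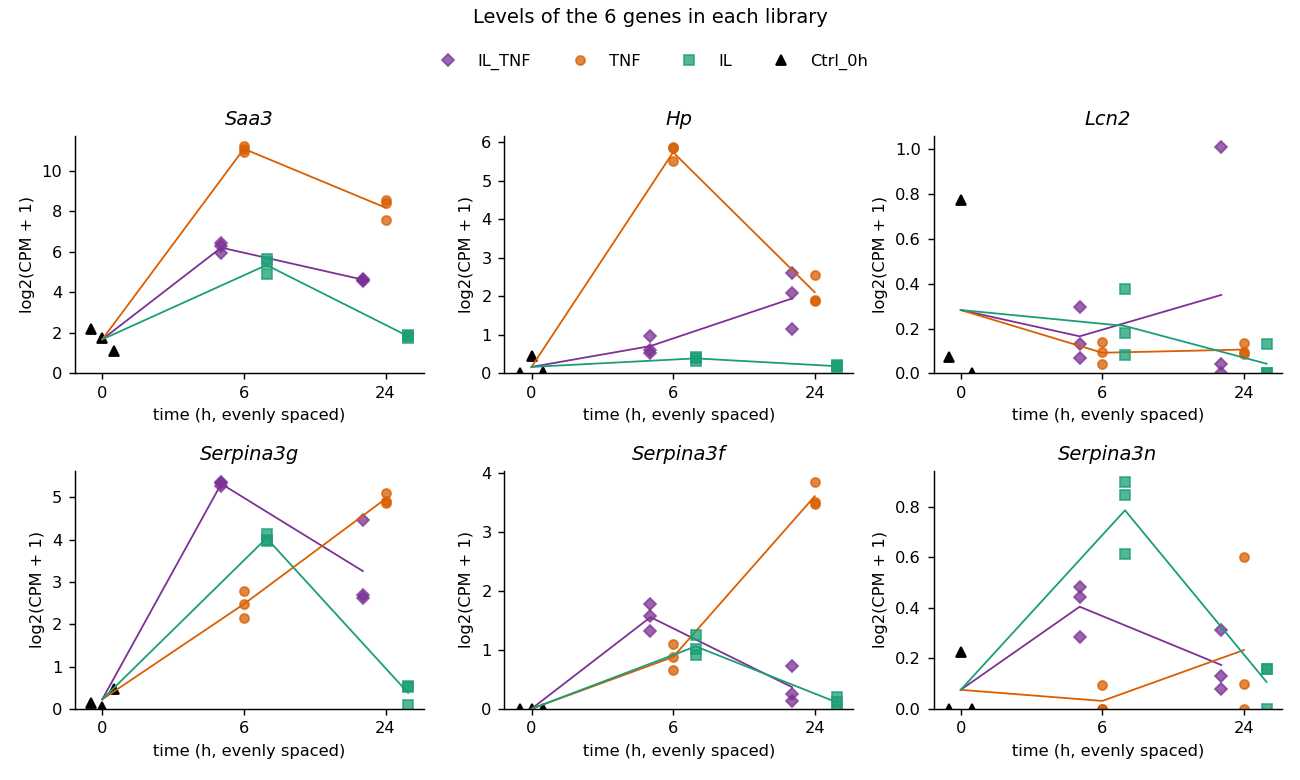
Level of each gene in each library as log2(CPM + 1) on its own vertical scale, against the time of treatment in h, evenly spaced; points are libraries, lines join group means from Ctrl_0h, and colours mark IL_TNF, TNF and IL. Saa3 and Hp peak in TNF_6h, Serpina3f peaks in TNF_24h, Serpina3g is high in IL_TNF_6h and TNF_24h, and Lcn2 and Serpina3n stay at or below 1.02 CPM in every library. The lines of IL_TNF and of IL join libraries that differ in Ddx3y and Ifi202b, so time and source cannot be told apart along them.

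Hp (ENSMUSG00000031722, chromosome 8, 109575128 to 109579172) encodes haptoglobin, which binds free haemoglobin. At 6 h it had 0.455, 0.535 and 0.959 CPM in IL_TNF_6h, 56.5, 58.0 and 44.4 CPM in TNF_6h and 0.353, 0.320 and 0.259 CPM in IL_6h. At 24 h it had 1.21, 3.22 and 5.13 CPM in IL_TNF_24h, 4.83, 2.66 and 2.75 CPM in TNF_24h and 0.117, 0.141 and 0.155 CPM in IL_24h. Ctrl_0h had 0, 0.372 and 0.0326 CPM, which is 12 counts in all, 11 of them in replicate 2. TNF_6h stood apart from the 6 other groups, TNF_24h overlapped IL_TNF_24h, and IL_24h overlapped Ctrl_0h.

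Hp rose by 8.69 ± 0.63 on the log2 scale in TNF_6h relative to Ctrl_0h and by 4.74 ± 0.64 in TNF_24h. Without replicate 1 of Ctrl_0h these values were 8.04 and 4.09. Without replicate 2 of Ctrl_0h they were 11.52 and 7.57, and Hp was then also called raised in IL_6h, at 4.14 instead of 1.31 ± 0.82. The IL_6h value was also called with no filter, at 1.36, and with 4 libraries left out together, at 4.16. Relative to TNF_6h, Hp fell in TNF_24h, with a log2 fold change of -3.95 ± 0.45, to 6.45% of the earlier level. It also fell in IL_TNF_6h relative to TNF_6h, with -6.33 ± 0.52, to 1.23% of the level there. At 24 h the same comparison was -0.10 ± 0.43 and was not called. Relative to IL_24h, Hp rose in IL_TNF_24h by 4.51 ± 0.59, while IL_TNF_6h against IL_6h was 1.06 ± 0.59 and was not called, except with no filter. Hp thus had 0.650 ± 0.271 CPM in IL_TNF_6h and 3.19 ± 1.96 CPM in IL_TNF_24h, against 53.0 ± 7.43 CPM in TNF_6h and 3.41 ± 1.23 CPM in TNF_24h (SD, n = 3 each). Between IL_TNF_6h and IL_TNF_24h, time and source of the cells cannot be told apart.

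The highest Hp of IL_TNF_24h came from replicate 3, the library with the hepatocyte markers. That library had 18.9 CPM of Alb, which encodes serum albumin, against at most 0.0338 CPM in the others, 8.32 CPM of Hpx (haemopexin, the carrier of free haem) against at most 1.08 CPM, and 3.02 CPM of Saa1 and 2.39 CPM of Saa2, the liver serum amyloids, against at most 0.536 and 0.0688 CPM. Of the 9 hepatocyte markers, 7 had a count in IL_TNF_24h, where Cps1 and Tat had none. Their sum ran from 0.350 to 27.9 CPM in IL_TNF_24h, from 0.728 to 0.973 CPM in TNF_24h and from 0.187 to 0.428 CPM in IL_24h. Without that library Hp was 3.99 higher on the log2 scale in IL_TNF_24h than in IL_24h, still called, and its value relative to TNF_24h was -0.61, still not called. The sum of 7 dendritic cell markers was 25.1 to 30.9 CPM in IL_TNF_24h and 2.80 to 4.19 CPM in IL_24h, with Siglech at 0 in both. Most of that sum in IL_TNF_24h was Ccr7 and Zbtb46, with means of 13.4 and 11.97 CPM against 0.555 and 2.62 CPM in IL_24h. Clec9a and Xcr1 were also higher in IL_TNF_24h, at 2.07 and 0.203 CPM against 0.362 and 0.035 CPM. Flt3 and Cd209a were lower there, at 0.0156 and 0 CPM against 0.026 and 0.0884 CPM. The part of liver or dendritic cell transcripts in the level of Hp was not tested.

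**Figure D2:**
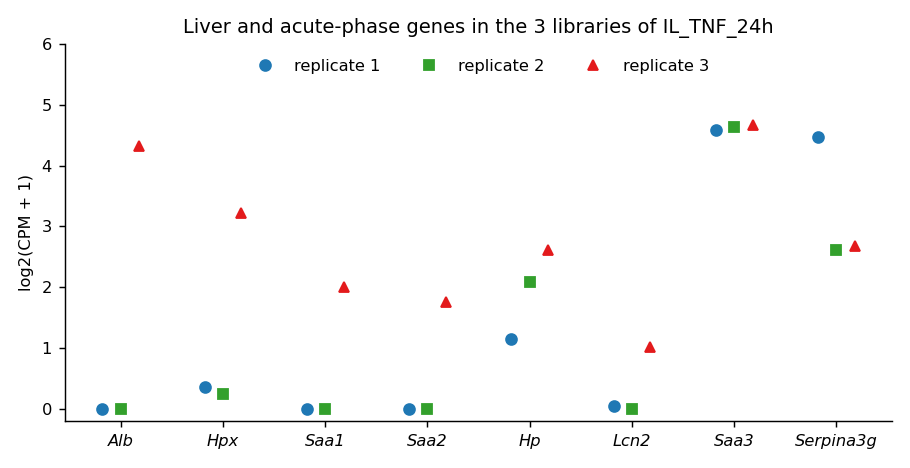
Levels of liver and acute-phase genes as log2(CPM + 1) in the 3 libraries of IL_TNF_24h, 1 point per library. Replicate 3 alone has Alb, Saa1 and Saa2 above 1 CPM and has the highest Hp (5.13 CPM) and Lcn2 (1.02 CPM), whereas Saa3 lies between 23.0 and 24.3 CPM in all 3, and Serpina3g is high in replicate 1 only (21.2 CPM).

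Lcn2 (ENSMUSG00000026822, chromosome 2, 32384637 to 32387739) encodes lipocalin 2, which starves bacteria of iron by binding their siderophores and is stored in neutrophil granules. Its levels were near 0 in every group. At 6 h it had 0.228, 0.0487 and 0.0959 CPM in IL_TNF_6h, 0.101, 0.0298 and 0.0688 CPM in TNF_6h and 0.133, 0.297 and 0.0575 CPM in IL_6h. At 24 h it had 0.0281, 0 and 1.02 CPM in IL_TNF_24h, 0.0608, 0.0700 and 0.0993 CPM in TNF_24h and 0, 0.0937 and 0 CPM in IL_24h. Ctrl_0h had 0.0534, 0.710 and 0 CPM. Neighbouring groups in the order of their levels overlapped, and Lcn2 was called in none of the 11 comparisons. Without replicate 2 of IL_24h, which held all of the counts of that group, it was called lowered in IL_24h relative to Ctrl_0h. Single libraries held most of its counts: 42 of 43 in IL_TNF_24h came from replicate 3, the library with the hepatocyte markers, and 21 of 23 in Ctrl_0h from replicate 2. The neutrophil markers Retnlg and Stfa2 had no count in any library, and between 6 and 11 of the 14 neutrophil markers had a count in each group. Their sum was 439 to 505 CPM in IL_TNF_6h, 155 to 167 CPM in TNF_6h, 244 to 286 CPM in IL_6h, 163 to 251 CPM in IL_TNF_24h, 65.7 to 82.4 CPM in TNF_24h, 95.9 to 109 CPM in IL_24h and 21.5 to 27.4 CPM in Ctrl_0h. Most of that sum was Csf3r, the receptor for G-CSF, which macrophages can also express (436 to 501 CPM in IL_TNF_6h). The sum therefore hides the weaker markers. Ly6g, Mpo, Elane, Prtn3, Ltf and Ngp had their highest group means in Ctrl_0h, from 0.0443 to 0.646 CPM. For Mpo, Elane, Prtn3, Ltf and Ngp most of that mean came from a single library. Their highest libraries had 0.270, 0.981, 1.59, 1.72 and 0.237 CPM. Ctsg and Camp were highest in TNF_6h (0.149 and 1.16 CPM), and Mmp8 and Cxcr2 in IL_TNF_24h (14.9 and 4.19 CPM). The Ctsg mean also came from a single library, at 0.447 CPM. The part of other cells in the counts of Lcn2 was not tested.

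Serpina3g (ENSMUSG00000041481, chromosome 12, 104236147 to 104241939) encodes an intracellular serpin, known as Spi2A, that inhibits lysosomal cathepsins and is known from activated T cells and macrophages of the mouse. At 6 h it had 39.5, 37.5 and 40.0 CPM in IL_TNF_6h, 5.90, 3.46 and 4.61 CPM in TNF_6h and 15.0, 14.8 and 16.5 CPM in IL_6h. At 24 h it had 21.2, 5.14 and 5.42 CPM in IL_TNF_24h, 28.1, 33.6 and 29.3 CPM in TNF_24h and 0.428, 0.445 and 0.0582 CPM in IL_24h. Ctrl_0h had 0.107, 0.0338 and 0.392 CPM. IL_TNF_6h was the highest group and TNF_24h the next, without overlap, and IL_TNF_24h overlapped IL_6h through its replicate 1.

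Serpina3g rose relative to Ctrl_0h by 4.71 ± 0.67 on the log2 scale in TNF_6h, by 7.41 ± 0.66 in TNF_24h and by 6.44 ± 0.65 in IL_6h, while IL_24h, at 0.79 ± 0.88, was not called. Of the 17 counts in Ctrl_0h 12 came from replicate 3, and without it the values were 5.91 in TNF_6h, 8.62 in TNF_24h and 7.64 in IL_6h. In TNF_24h it rose by 2.71 ± 0.46 relative to TNF_6h, a comparison in which Saa3 and Hp fell. In IL_TNF_6h it rose by 3.07 ± 0.46 relative to TNF_6h, where Saa3 and Hp fell too. In IL_TNF_24h it fell relative to TNF_24h, with a log2 fold change of -1.53 ± 0.43. Relative to IL alone it rose by 1.34 ± 0.43 in IL_TNF_6h and by 5.10 ± 0.57 in IL_TNF_24h. The call at 6 h is lost with the DESeq2 Wald test and without any 1 of 14 of the 21 libraries, all 6 of the compared groups among them, at values of 1.32 to 1.39. Without replicate 1 of IL_TNF_24h the 24 h values were 4.10 relative to IL_24h and -2.54 relative to TNF_24h, both still called.

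**Figure D3:**
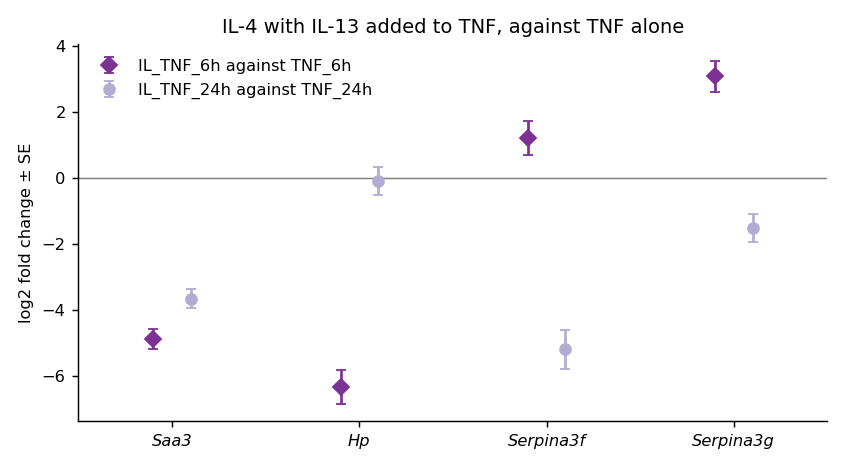
Log2 fold change of IL_TNF relative to TNF alone at the same time, with its standard error, for the 4 genes with more than 30 counts in each of the 4 groups. At 6 h Saa3 (-4.88) and Hp (-6.33) lie far below 0 and Serpina3g (3.07) above it, and at 24 h Saa3 (-3.67), Serpina3f (-5.20) and Serpina3g (-1.53) lie below 0 and Hp (-0.10) at it.

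Serpina3f (ENSMUSG00000066363, chromosome 12, 104214544 to 104221129) lies on the same chromosome as Serpina3g, in the same cluster, and encodes another A3 serpin of the mouse. At 6 h it had 1.96, 1.48 and 2.45 CPM in IL_TNF_6h, 0.838, 1.13 and 0.584 CPM in TNF_6h and 1.02, 1.37 and 0.891 CPM in IL_6h. At 24 h it had 0.647, 0.187 and 0.0967 CPM in IL_TNF_24h, 10.1, 10.4 and 13.3 CPM in TNF_24h and 0.0779, 0 and 0.155 CPM in IL_24h. Ctrl_0h had 0 counts in all 3 libraries. TNF_24h stood apart from the 6 other groups, IL_TNF_6h was next, and below it each group overlapped its neighbour.

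Against a floor of 3 counts over the libraries of Ctrl_0h, Serpina3f was at least 28.2-fold higher in TNF_6h, at least 366-fold higher in TNF_24h and at least 36.0-fold higher in IL_6h. IL_24h was called raised on 12 counts against 0, with libraries that overlap those of Ctrl_0h. The call is lost when replicate 3 of IL_24h or replicate 1 or 2 of Ctrl_0h is left out. In the fit of the compared groups alone Serpina3f did not pass the filter and was not tested for IL_24h. Serpina3f rose by 3.71 ± 0.54 on the log2 scale in TNF_24h relative to TNF_6h. In IL_TNF_24h it fell relative to TNF_24h, with a log2 fold change of -5.20 ± 0.59, to 2.75% of the level there. Without replicate 1 of IL_TNF_24h the fold change was -6.29, and the mean of that group was 0.142 CPM instead of 0.310 CPM. At 6 h the same comparison was 1.20 ± 0.52 and was not called, although the libraries did not overlap. It was called, at 0.97 to 1.21, with the DESeq2 Wald test, with either other filter, in the fit of the compared groups alone, without 4 of the 21 libraries taken 1 at a time, and with 4 libraries left out together. IL_TNF against IL was 0.84 ± 0.50 at 6 h and 1.86 ± 0.70 at 24 h, neither called. The 24 h value was called with the DESeq2 Wald test, at 1.90, with no filter, at 1.85, and without replicate 3 of IL_TNF_24h, at 2.29, and it was 0.79 without replicate 1 of that group.

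Serpina3n (ENSMUSG00000021091, chromosome 12, 104406646 to 104414334) encodes the secreted serpin that is taken as the nearest counterpart of human alpha-1-antichymotrypsin and inhibits granzyme B and leukocyte elastase in the mouse. At 6 h it had 0.398, 0.219 and 0.360 CPM in IL_TNF_6h, 0.0670, 0 and 0 CPM in TNF_6h and 0.530, 0.800 and 0.862 CPM in IL_6h. At 24 h it had 0.0563, 0.0935 and 0.242 CPM in IL_TNF_24h, 0.517, 0.0700 and 0 CPM in TNF_24h and 0.117, 0 and 0.116 CPM in IL_24h. Ctrl_0h had 0, 0.169 and 0 CPM. IL_6h was the highest group and did not overlap the next, IL_TNF_6h. It was called raised in IL_6h relative to Ctrl_0h, by 3.69 ± 1.25, on 89 counts against 5 counts, all 5 in replicate 2, and the call is lost without replicate 1 or 3 of Ctrl_0h, at 3.09 and 3.15, while without replicate 2 the value was 7.80. It was also called raised in IL_TNF_6h relative to TNF_6h, where 38 counts stood against 2, a ratio of 14.6 (95% counting interval 3.85 to 127). That call is lost without any 1 of 11 of the 21 libraries, at 3.15 to 3.92 on the log2 scale. Both counts of TNF_6h came from its replicate 1, without which that group is at 0. It was not called in TNF_6h relative to Ctrl_0h, nor in TNF_24h, at 1.84 ± 1.30. The TNF_24h value was called without replicate 2 of Ctrl_0h, at 5.95, and with 4 libraries left out together, at 5.97.

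The 3 serpin genes are close enough in sequence for reads to be shared. In the GENCODE vM1 transcripts, used for sequence only, Serpina3f and Serpina3g were identical at 89.7% of aligned bases, Serpina3f and Serpina3n at 80.7% and Serpina3g and Serpina3n at 82.9%. Of all stretches of 50 bases, 8.08% in Serpina3f, 11.3% in Serpina3g and 6.75% in Serpina3n also occurred in a transcript of another gene, most of them other A3 serpins, and of stretches of 100 bases 1.40%, 1.57% and 0.0509%. Saa3 shared 1.87% of its 50-base stretches with Saa1, and Hp and Lcn2 shared none. How the authors' counting treated reads that fit more than 1 gene is not given in the sources used here, so the split between the serpin rows is uncertain to that extent.

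Over all libraries, Serpina3g held 85.1% of the counts of the 14 Serpina3 rows, Serpina3f 11.9%, Serpina3n 1.41% and each of the 11 others at most 0.544%. The libraries held Serpina3f and Serpina3g in different proportions, a description that was not tested. Serpina3f made up 3.78% to 5.71% of the counts of the 3 genes in the libraries of IL_TNF_6h and 1.68% to 3.45% in IL_TNF_24h, against 11.3% to 24.7% in TNF_6h, 23.5% to 31.3% in TNF_24h and 4.87% to 8.10% in IL_6h. Every library with TNF alone thus lay above every library of IL_TNF and of IL_6h. The libraries of IL_24h, with 17 to 32 counts of the 3 genes, had 12.5%, 0% and 47.1%, so not every library with IL lay below. Summed over the 3 genes, IL_TNF_6h had 41.3 ± 1.86 CPM and TNF_24h 41.8 ± 2.75 CPM (SD, n = 3 each), with overlapping libraries, although Serpina3f held a different share of each.

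**Figure D4:**
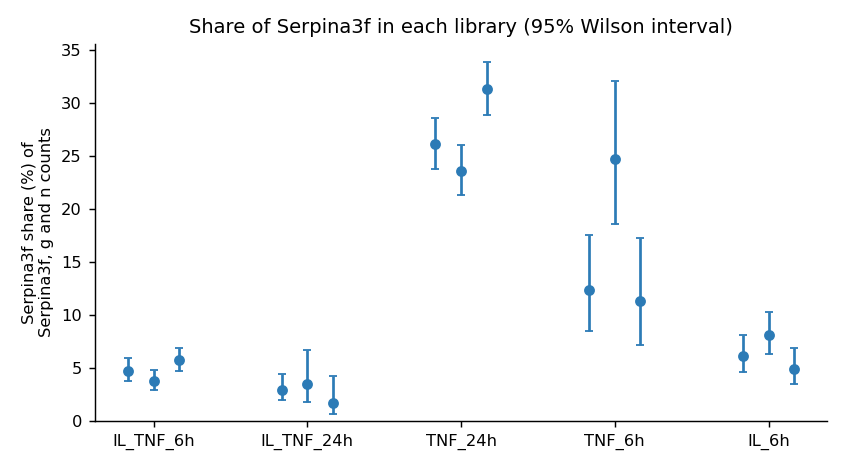
Serpina3f as a percentage of the counts of Serpina3f, Serpina3g and Serpina3n, 1 point per library, with its 95% Wilson interval, which covers counting error only; IL_24h and Ctrl_0h, with at most 32 counts per library, are left out. The 6 libraries with TNF alone lie between 11.3% and 31.3%, and the 9 of IL_TNF_6h, IL_TNF_24h and IL_6h at or below 8.10%.

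The fold change of IL_TNF over IL was also set against that of TNF over Ctrl_0h, as the log2 difference between them. For Saa3 this difference was -8.98 ± 0.44 at 6 h and -3.78 ± 0.41 at 24 h. It was -7.64 ± 0.93 for Hp at 6 h and -0.23 ± 1.02 at 24 h, and -3.37 ± 0.83 for Serpina3g at 6 h and -2.32 ± 0.96 at 24 h. Without replicate 2 of Ctrl_0h the 6 h value of Hp was -10.47, without replicate 1 it was -6.98, and without replicate 3 of Ctrl_0h that of Serpina3g was -4.57. The 24 h values of Hp and Serpina3g were not called. That of Serpina3g was called without replicate 1 of IL_TNF_24h, at -3.38, without replicate 3 of IL_24h, at -2.84, and without replicate 3 of Ctrl_0h, at -3.52, and also with the DESeq2 Wald test, with no filter and with 4 libraries left out together, at -2.33 to -2.94. Each of these differences uses the same 3 libraries of Ctrl_0h at both times. They compare fold changes, so a higher level without TNF lowers the value for the same rise in CPM. Serpina3g had 0.177 CPM in Ctrl_0h and 4.65 CPM in TNF_6h, and 15.4 CPM in IL_6h and 39.0 CPM in IL_TNF_6h. At 6 h its rise in CPM with TNF was thus larger with IL, although its log2 difference was negative.

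Counts of calls among the 6 genes are set beside those over all 15581 genes tested (edgeR quasi-likelihood test, adjusted p below 0.05), and nothing is read from them because the same values chose the genes. In TNF_6h relative to Ctrl_0h 4 were raised and none lowered, against 18.8% raised and 20.5% lowered of all genes, and in TNF_24h again 4 and none, against 20.9% and 24.4%. In IL_6h 4 were raised and none lowered, against 32.8% and 31.6%, and in IL_24h 1 and none, against 31.7% and 32.6%. IL_TNF_6h relative to IL_6h gave 2 raised and none lowered, against 7.09% and 6.98%, and IL_TNF_24h relative to IL_24h gave 3 and none, against 6.03% and 5.08%. IL_TNF_6h relative to TNF_6h gave 2 raised and 2 lowered, against 29.7% and 27.5%, and IL_TNF_24h relative to TNF_24h gave none raised and 3 lowered, against 29.2% and 27.1%. TNF_24h relative to TNF_6h gave 2 and 2, against 12.7% and 10.9%. For the difference of the TNF effects with and without IL none was raised and 4 were lowered at 6 h, against 9.27% and 9.13%, and none and 2 at 24 h, against 11.6% and 12.5%.

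Of 27 other acute-phase genes, 17 had too few counts to pass the filter and 10 were tested. In TNF_6h relative to Ctrl_0h 2 of these rose and 2 fell, against 18.8% and 20.5% of all genes. The median of the 10 was 0.18 on the log2 scale, against -0.04 over all genes. Cp, the copper carrier ceruloplasmin, had 20.1 ± 2.20 CPM in TNF_6h and 0.688 ± 0.394 CPM in Ctrl_0h (log2 fold change 4.88 ± 0.33, adjusted p 1.2e-09 by edgeR). Il1rn, the interleukin 1 receptor antagonist, had 63.8 ± 2.98 CPM in TNF_6h and 5.88 ± 1.03 CPM in Ctrl_0h (3.44 ± 0.15, adjusted p 2e-12 by edgeR). The metallothioneins Mt1 and Mt2, which bind zinc, fell, with log2 fold changes of -2.01 ± 0.17 and -4.02 ± 0.35. In IL_TNF_6h relative to TNF_6h, where Saa3 and Hp fell, Il1rn rose by 1.23 ± 0.13 and Cp, at 0.38 ± 0.26, was not called. In IL_TNF_24h relative to TNF_24h both fell, Il1rn with -2.10 ± 0.14 and Cp with -0.79 ± 0.26. In IL_TNF_24h relative to IL_24h 5 were raised and 1 lowered, against 6.03% and 5.08% of all genes. Of the 5, 3 (Saa1, Orm1 and Hpx) had most of their IL_TNF_24h counts in replicate 3. Without that library the number raised was 3, and the part of its liver transcripts was not tested.

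None of the 21 other clade A serpins on the list, which include the remaining A3 genes and the liver antitrypsins, passed the filter. Of 18 serpins of other clades 13 passed. In TNF_6h relative to Ctrl_0h 4 rose and 2 fell (median -0.05), against 18.8% and 20.5% of all genes. Serpinb9, the intracellular inhibitor of granzyme B, rose by 2.31 ± 0.22 to 20.4 ± 1.29 CPM in TNF_6h, against 4.14 ± 1.10 CPM in Ctrl_0h, and Serpinb8 by 1.42 ± 0.15. Serpinb6a, an inhibitor of cathepsin G, fell, with a log2 fold change of -1.31 ± 0.12. At 24 h the same 3 genes were called in the same directions.

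Among the cytokines, receptors and transcription factors that drive acute-phase genes, 19 of 20 passed the filter. In TNF_6h relative to Ctrl_0h 11 rose and 1 fell (median 0.65 on the log2 scale), against 18.8% and 20.5% of all genes. Tnf itself had 120 ± 9.36 CPM in TNF_6h and 26.3 ± 3.90 CPM in Ctrl_0h (2.19 ± 0.15). The NF-kB subunits Relb and Nfkb2 rose by 2.10 ± 0.17 and 1.90 ± 0.16, and Cebpa fell, with -1.49 ± 0.29. The C/EBP genes Cebpb and Cebpd, whose products are activators of acute-phase promoters, rose by 1.25 ± 0.34 and 1.07 ± 0.21 in TNF_6h. In IL_TNF_6h relative to TNF_6h both fell, Cebpb with -1.56 ± 0.34 and Cebpd with -2.42 ± 0.22. In IL_TNF_24h relative to TNF_24h both fell, with -3.47 ± 0.37 and -3.91 ± 0.23. With IL alone both were also lower than in Ctrl_0h, in IL_6h with -1.59 ± 0.34 and -3.10 ± 0.23. The difference of the TNF effects with and without IL was not called at 6 h (Cebpb 0.03 ± 0.47, Cebpd 0.68 ± 0.30). At 24 h it was -1.26 ± 0.48 for Cebpb, not called, and -1.37 ± 0.30 for Cebpd, called. Cebpd had 25.9 ± 5.27 CPM in IL_TNF_6h and 139 ± 15.0 CPM in TNF_6h (SD, n = 3 each). Rel, another NF-kB subunit, rose by 2.84 ± 0.20 in IL_TNF_6h relative to TNF_6h. Of the 19 genes 9 rose and 5 fell there, against 29.7% and 27.5% of all genes. In IL_TNF_24h relative to TNF_24h 5 rose and 10 fell, against 29.2% and 27.1% of all genes. Tnf fell there, with -5.54 ± 0.18.

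Of 16 genes for receptors and targets of the member proteins 11 passed. In TNF_6h relative to Ctrl_0h 4 rose and 4 fell (median -0.02), against 18.8% and 20.5% of all genes. Fpr2, a formyl peptide receptor that serum amyloid A can engage, had 32.1 ± 5.21 CPM in TNF_6h and 0.202 ± 0.150 CPM in Ctrl_0h (7.22 ± 0.39), and it fell in IL_TNF_6h relative to TNF_6h, with -3.31 ± 0.29. Tlr2, another receptor reported for serum amyloid A, rose by 2.06 ± 0.12 in TNF_6h, and Mmp9, the gelatinase that lipocalin 2 binds, by 4.43 ± 0.39. Cd163, the scavenger receptor for haptoglobin bound to haemoglobin, had 0.883 ± 0.232 CPM in TNF_6h and 13.6 ± 3.99 CPM in Ctrl_0h and fell in TNF_6h, the group with the highest Hp, with a log2 fold change of -3.95 ± 0.40.

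Genes with the most similar profile were taken as those with the smallest root mean square difference of centred log2(CPM + 1) means over the 7 groups, among 9010 genes that reached 10 CPM in a group. For Saa3 they were Ms4a4c (difference 0.91), the chemokine gene Ccl5 (1.06) and Slfn1 (1.20), and for Hp the complement factor gene Cfb (0.80), Slfn4 (0.83) and Slfn1 (0.91). For Serpina3f they were the double-stranded RNA receptor gene Tlr3 (0.37), Nfxl1 (0.43) and Trim21 (0.45), and for Serpina3g Spint2 (0.70), the phosphodiesterase gene Pde4b (0.74) and Tnfaip3 (0.77), which encodes the NF-kB inhibitor A20. The Hp profile differed from that of Saa3 by 1.80 and that of Serpina3f from Serpina3g by 1.28, in each case more than from the genes named. Adding 1 before the log shrinks fold changes at low levels. Serpina3f, at 0 CPM in Ctrl_0h and 11.3 CPM in TNF_24h, thus lay near Tlr3, at 4.93 and 49.8 CPM, without a like fold change. On this scale the profiles of Lcn2 and Serpina3n were nearly flat, with an SD over the groups of 0.10 and 0.24. At their low levels that follows from the scale and does not show that the groups were alike. The genes nearest to Lcn2 (Clcc1, Coq3 and Eed) and to Serpina3n (Exoc3, Trmt6 and Gtf2h3) had similarly flat profiles.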

How the data were processed

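Messenger RNA of 21 libraries was measured by sequencing. The authors deposited whole-number counts of reads per gene, with no normalization. The submitters' processing notes name TopHat2 2.0.12, Subread 1.6.3 with featureCounts, edgeR 3.28.1 and GRCm38. Annotation, strandedness and the handling of mates were not stated in any source used here. A count of 2 was more frequent than a count of 1 (30373 and 17808 values), so mates may have been counted apart. Counting intervals cover counting error only and would then be too narrow.

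R 4.3.3 with edgeR 4.0.16 was used on these counts. Symbols were found for 32832 of 47069 identifiers. Of 32292 identifiers with a count, 15581 passed filterByExpr by group, with 99.9% of the counts. Libraries were scaled by TMM. A single negative binomial model covered the 7 groups, and its quasi-likelihood F test was run for 11 contrasts, adjusted by Benjamini and Hochberg over all genes (threshold 0.05). Each standard error was worked back as the absolute log2 fold change divided by sqrt(F), which is too narrow for genes with few counts. The common biological coefficient of variation was 22.8%. A run on simulated counts covered only IL_TNF_6h against IL_6h, with changes added only to genes above 1 CPM. It does not show how the fit behaves for changed genes near 0 or with single outlying libraries. Members, gene lists and the 4 libraries left out together (replicate 2 of Ctrl_0h, replicate 2 of IL_6h, replicate 3 of IL_TNF_6h, replicate 1 of IL_TNF_24h) were chosen with earlier results of these data known. Genes named from a list were those called in TNF_6h or TNF_24h relative to Ctrl_0h that reached 10 CPM in the higher of both groups, up to the 4 with the largest log2 fold change. Cebpb, Cebpd and Rel, and the liver genes of replicate 3 of IL_TNF_24h, were named after their values were seen. Alternatives were DESeq2 1.42.0 size factors, its Wald test, no filter, a filter of 1 CPM in 3 libraries, the compared groups alone, a replicate block, each library left out, 4 libraries left out together, other CPM scalings, and the 3 serpin rows summed.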

Additional observations from a re-analysis of the deposited data

Results flagged for a closer look

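These results stand out because the fold change of IL_TNF over IL differed from that of TNF over Ctrl_0h, by the test of that difference in edgeR (adjusted p below 0.05 over all genes). The libraries with IL and those without it also differ in Ddx3y (24 h) or Ifi202b (6 h), so IL and source of the cells cannot be told apart. The values are the log2 fold change with IL minus that without IL. For Saa3 the difference was -8.98 at 6 h and -3.78 at 24 h. For Hp it was -7.64 at 6 h. For Serpina3g it was -3.37 at 6 h. For Serpina3f it was -7.17 at 6 h and -9.87 at 24 h, but these fitted values depend on the prior count because Ctrl_0h had 0 counts, and they are no measure of size. The genes were chosen on levels that contain these differences, so the test is no independent support for them. For Serpina3f and Serpina3g at 6 h the mean rise in CPM with TNF was no smaller with IL than without it. Serpina3f had 0 CPM in Ctrl_0h and 0.852 CPM in TNF_6h, and 1.09 CPM in IL_6h and 1.96 CPM in IL_TNF_6h.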

How the results depend on the processing

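The counts of members called raised in TNF_6h and TNF_24h relative to Ctrl_0h stayed within 1.5 times under every alternative run. In IL_24h relative to Ctrl_0h the count of 1 raised became 0 in the compared groups alone, where Serpina3f did not pass the filter and was not tested. It became 2 with 4 libraries left out together, where Hp was called too. In IL_TNF_6h relative to IL_6h the count of 2 became 1 with the DESeq2 Wald test. Leaving out single libraries gave 0 to 1 raised and 0 to 1 lowered in IL_24h, 0 to 2 raised in IL_TNF_6h relative to IL_6h, and 1 to 3 raised in IL_TNF_6h relative to TNF_6h. The cause of these changes was not tested. The libraries with the same replicate number were not found to pair, with correlations of deviations of -0.31 to 0.36. The fit with the replicate number as a block changed no call of a member.

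The other reversals were of fold changes that were not called. With 4 libraries left out together, Hp in IL_TNF_24h relative to TNF_24h was 0.25, Serpina3n in TNF_6h relative to Ctrl_0h was 2.94 and the difference of the Serpina3n TNF effects at 6 h was -4.10. That difference was -0.046 with no filter.

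Leaving out single libraries moved Saa3 in IL_24h relative to Ctrl_0h between -0.20 and 0.55. Hp moved between -0.52 and 2.96 in IL_24h relative to Ctrl_0h, between -0.61 and 0.26 in IL_TNF_24h relative to TNF_24h, and between -3.06 and 0.42 for the difference of TNF effects at 24 h. Lcn2 moved between -2.45 and 1.10 in TNF_6h, -2.23 and 1.31 in TNF_24h and -1.30 and 2.39 in IL_6h, each relative to Ctrl_0h. It moved between -1.15 and 0.34 in IL_TNF_6h relative to IL_6h, -0.99 and 6.72 in IL_TNF_24h relative to IL_24h, -2.28 and 2.73 in IL_TNF_24h relative to TNF_24h, -0.14 and 0.63 in TNF_24h relative to TNF_6h, and -1.53 and 2.14 for the difference at 6 h. Serpina3n moved between -4.10 and 2.93 in TNF_6h, -0.59 and 5.95 in TNF_24h and -0.057 and 4.67 in IL_24h, each relative to Ctrl_0h. It moved between -0.068 and 1.08 in IL_TNF_24h relative to IL_24h, -1.35 and 1.84 in IL_TNF_24h relative to TNF_24h, -4.09 and 2.94 for the difference at 6 h, and -5.26 and 1.29 at 24 h. At a few counts per library, the direction of Lcn2 and Serpina3n was mostly not detectable.

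Over all genes, with 4 libraries left out together, 1416 instead of 940 were raised and 1315 instead of 791 lowered in IL_TNF_24h relative to IL_24h, and 3010 instead of 1980 raised and 2869 instead of 1695 lowered in TNF_24h relative to TNF_6h. For the difference of TNF effects 2265 instead of 1422 were lowered at 6 h and 2949 instead of 1946 at 24 h. Without replicate 1 or 2 of IL_24h, 511 or 508 were lowered in IL_TNF_24h relative to IL_24h, and without replicate 2 of IL_24h 1043 instead of 1812 were raised for the difference at 24 h. The median log2 fold change of all genes was up to 0.729 in size with no filter, against 0.0915 with the filter. With CPM by the library total alone, 4 of 42 member levels moved by more than their SD: Saa3 in TNF_6h to 1886 CPM, and Serpina3g to 27.2 CPM in TNF_24h, 17.3 CPM in IL_6h and 40.8 CPM in IL_TNF_6h.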
